A study of Mus musculus with 36 samples.

Results

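A set of 10 named genes of glucose uptake and its control was followed through all RNA libraries and all Pax5 binding data of the series. They were the glucose transporter genes *Slc2a1*, *Slc2a3* and *Slc2a6*, the hexokinase genes *Hk1*, *Hk2* and *Hk3*, the enzymes *G6pdx* and *Ldha*, and the regulators *Txnip* and *Nr3c1*. They were chosen by name and are 10 of the 21924 protein-coding genes of the mouse annotation. All 10 had a row in each of the 3 expression tables. All 10 were tested in the sorted cells and 9 in each culture table, because *Hk3* did not reach 10 normalized counts in at least 2 libraries there.

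Glucose enters a lymphocyte through facilitative transporters and is held there once a hexokinase has phosphorylated it. It is then used through glycolysis to pyruvate and lactate, or is sent by glucose-6-phosphate dehydrogenase into the pentose phosphate pathway. Txnip, an arrestin-like protein that binds thioredoxin, removes glucose transporters from the cell surface, and the glucocorticoid receptor encoded by *Nr3c1* opposes glucose use in lymphoid cells. Pax5, the transcription factor that commits progenitors to the B lineage, is known to restrain glucose supply in B cell leukemia, and *Txnip*, *Nr3c1* and the cannabinoid receptor gene *Cnr2* have been named among its effectors.

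The study asked how SIRT7, a deacetylase, acts on early B cells through acetylation of a single lysine, K198, of Pax5. The sorted cells were pro-B cells (B220+IgM-CD43+) and pre-B cells (B220+IgM-CD43-) from the bone marrow of 2 wild-type (WT) and 2 *Sirt7*-/- mice of the 129Sv strain, in which *Sirt7* is deleted in the germline. The *Pax5*-/- pro-B cells, on a C57BL/6 background, carried an empty retroviral vector (EV), Pax5WT, Pax5K198Q (which resembles the acetylated lysine) or Pax5K198R (which resembles the deacetylated lysine), with 2 libraries each, and ChIP-seq for Pax5 was done on 2 samples of each Pax5 form in such cells. The cultured bone marrow pro-B cells, of the 129Sv strain by the study's account, were WT with EV, *Sirt7*-/- with EV, *Sirt7*-/- with Pax5WT and *Sirt7*-/- with Pax5K198R, again with 2 libraries each. All retrovirally transduced cells were grown on OP9 mouse stromal cells with cytokines. Animal ages are not used here. Libraries of the sorted cells held 50004827 to 55536608 reads, and the normalized counts summed to 28865461 to 30520853 in the *Pax5*-/- libraries and to 27814214 to 30160880 in the cultured ones.

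The labels were checked first against genes that define each group. *Sirt7* itself was measured at 2692 and 2533 normalized counts in WT pro-B cells against 363 and 366 in *Sirt7*-/- pro-B cells, and at 5613 and 5219 against 1066 and 821 in pre-B cells. It fell by 2.84 (log2, limma adjusted p = 0.00292) in pro-B and by 2.53 (adjusted p = 0.00931) in pre-B cells, so reads remained at the locus in *Sirt7*-/- mice, where the deletion leaves part of the gene. In the *Pax5*-/- cells the *Pax5* transcript stood at 2201 and 2103 normalized counts with EV, 6458 and 6152 with Pax5WT, 8918 and 8963 with Pax5K198Q and 21162 and 16609 with Pax5K198R. The forms were therefore not present at equal transcript levels, and the part of the dose in any difference between forms was not tested. In the cultured cells *Pax5* was already at 23862 and 27134 in WT EV and 25995 and 37113 in *Sirt7*-/- EV libraries. It was at 43024 and 43260 with added Pax5WT and 38690 and 45426 with added Pax5K198R, differences from *Sirt7*-/- EV of 0.47 and 0.43 (log2) that did not pass (limma adjusted p = 0.426 and 0.241), although the groups did not overlap. In these comparisons 38.7% and 49.6% of all genes did not overlap. For the sorted cells, some sample descriptors contradict the sample titles on the stage, and the titles were followed. Of 8 pro-B marker genes, 6 were lower in WT libraries titled pre-B, among them *Dntt* (-7.30, log2) and *Igll1* (-5.09), and 7 of 8 pre-B marker genes were higher, among them *Il2ra* (2.87). *Rag1*, in the pro-B list, went the other way, at 15744 and 24546 in WT pro-B and 53920 and 71115 in WT pre-B libraries. Mature B markers also differed, with a summed level of 42431 to 56366 in the 4 pro-B libraries and 170262 to 418013 in the 4 pre-B libraries, led by *Cd74* in all but WT pre-B replicate 2, where *Ighd* was highest. Of 12 T cell markers 10 were lower in WT pre-B cells. Of 6 plasma cell markers 2 were lower and 1 higher there, and their most abundant gene in all pro-B libraries, *Jchain*, was at 20006 to 57036 in the 4 pro-B libraries and at 881 to 2191 in the 4 pre-B libraries. The remaining pre-B marker, *Igkc*, was at 234972 to 550267 in pro-B and at 215431 to 269168 in pre-B libraries. The markers' part in the stage results below was not tested.

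Pax5 peaks were read over each gene and the 10 kb upstream of it, on mm10 coordinates. Longer genes thus had longer windows, and the shares of all genes given here were not matched for length. With Pax5K198R, 5 of the 10 genes (*Hk1*, *Ldha*, *Nr3c1*, *Slc2a1* and *Txnip*) had a peak that was called in both replicates, against 30.3% of all protein-coding genes. With Pax5WT, 2 of 10 (*Hk1* and *Nr3c1*) had one, against 26.5% of all genes, and with Pax5K198Q 0 of 10 did, against 9.79%. The lists themselves differed in length, with 10646 and 11830 peaks for Pax5WT, 3750 and 3957 for Pax5K198Q and 12158 and 13997 for Pax5K198R, so a gene missing from a list is only a gene where no peak was called. The list of Pax5K198R replicate 2 holds peak names that carry another replicate's number, so which sample it came from rests on its record alone, and every call in both Pax5K198R replicates uses it. The difference between the forms at these genes was not tested.

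**Figure D1:**
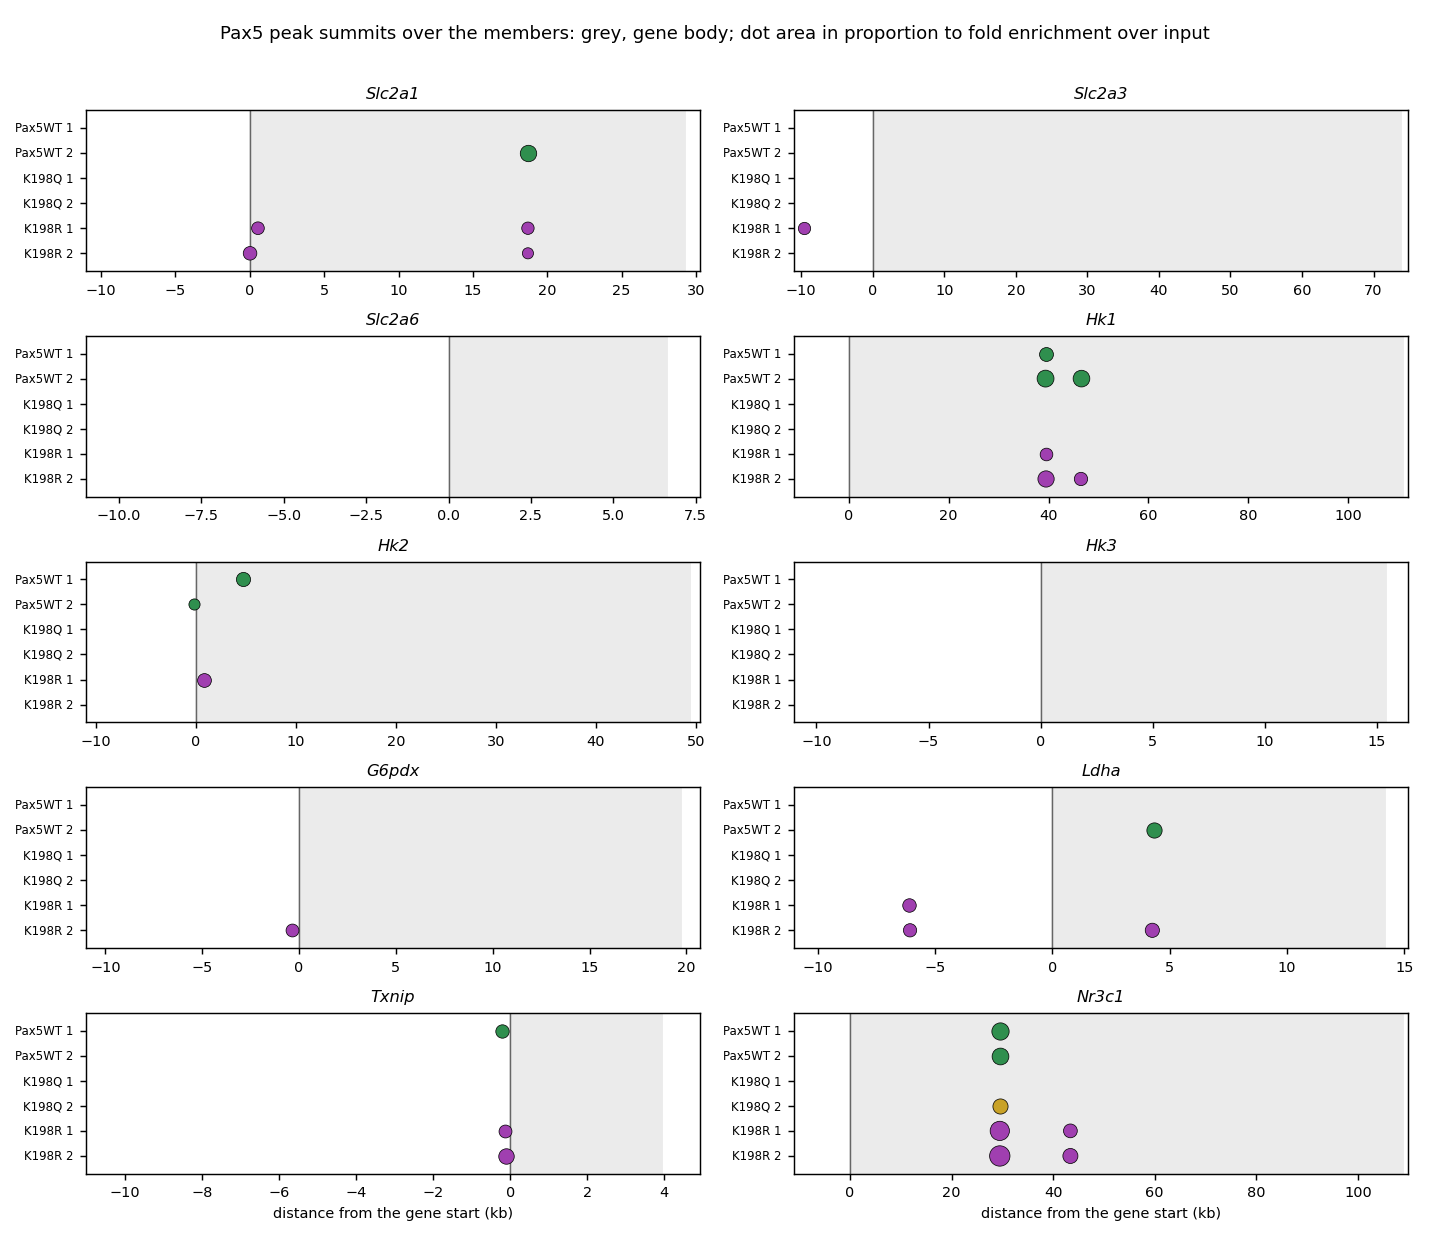
Pax5 peaks at the 10 genes by form and replicate, 1 row per list, with each summit at its distance from the gene start (kb, horizontal axis). Gene bodies are grey and dot areas are in proportion to the fold enrichment over input. *Nr3c1* carried the highest fold enrichment, 10.6 in Pax5K198R replicate 2, and *Slc2a6* and *Hk3* carried no peak in any list.

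In *Hk1*, the hexokinase that sits on mitochondria in most tissues (chr10:62268855-62379908, minus strand), the site called in both replicates was also at an internal transcript start. It spanned chr10:62340095-62340646, with a fold enrichment of 4.94 and 7.29 in the Pax5WT lists and of 4.09 and 6.76 in the Pax5K198R lists, and its summits were 64 to 102 bases downstream of the start. A further *Hk1* site, intronic, was called in Pax5WT replicate 2 (7.12-fold) and Pax5K198R replicate 2 (4.54-fold). Of the 4 printed sites, only the *Hk1* site at the internal start held Pax5 core letters in the 200 bases around its mean summit. These core letters of a Pax5 site, GCNTGAC on either strand, are shown in capitals with their flanks. The stretch before the transcript start follows.
Hk1 core letters, chr10:62340417-62340443, minus strand: gtgccaccacGCGTGACcgcgcgctcc
Hk1 before the transcript start, chr10:62340543-62340646, minus strand: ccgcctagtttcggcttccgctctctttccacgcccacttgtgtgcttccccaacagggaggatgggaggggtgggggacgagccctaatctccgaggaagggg
The same letters occurred within 200 bases around the summit of 16.5% of Pax5WT, 20.8% of Pax5K198Q and 15.5% of Pax5K198R peaks shared by both replicates, and in 6.85% of 200-base promoter windows of RefSeq (GRCm38.p6). A match is a description of the letters and not a measured contact.

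At *Txnip* (chr3:96557957-96561883, plus strand) the site was the promoter itself, chr3:96557645-96557960. Its summits lay at -204 bases from the gene start in Pax5WT replicate 1 (4.58-fold), at -143 bases in Pax5K198R replicate 1 (4.26-fold) and at -110 bases in Pax5K198R replicate 2 (6.13-fold). The 200 bases around the mean summit are shown because *Txnip* is known for its transcription in response to glucose. The capitals mark a pair of CACGAG boxes 5 bases apart, which are the carbohydrate response element read by MondoA and ChREBP, and the CCAAT boxes on both strands beside it.
Txnip promoter site, chr3:96557705-96557904, plus strand: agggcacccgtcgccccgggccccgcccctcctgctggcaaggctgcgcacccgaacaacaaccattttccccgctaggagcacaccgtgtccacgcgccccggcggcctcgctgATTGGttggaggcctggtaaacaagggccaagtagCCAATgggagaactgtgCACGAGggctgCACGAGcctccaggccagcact
This arrangement of CACGAG boxes was looked for after the sequence had been read. It occurred in 1 of 9505 Pax5K198R peaks and in 1 of 32851 promoter windows, both of them this *Txnip* sequence, while CCAAT on either strand occurred in 18.1%, 16.7% and 19% of the Pax5WT, Pax5K198Q and Pax5K198R peaks and in 28.4% of the promoter windows. The Pax5 core letters were not in this window.

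For *Slc2a1*, the gene of the main lymphocyte glucose importer GLUT1 (chr4:119108711-119137983, plus strand), an intronic site 18.7 kb inside the gene, chr4:119127280-119127571, was called in Pax5WT replicate 2 (6.92-fold) and in Pax5K198R replicates 1 (3.92-fold) and 2 (3.17-fold). Near the *Slc2a1* start, a peak 21 bases past it was called in Pax5K198R replicate 2 (4.72-fold) and a separate one 553 bases past it in Pax5K198R replicate 1 (4.11-fold). For *Ldha*, which turns pyruvate into lactate (chr7:46841475-46855627, plus strand), a site with summits at -6.06 and -6.09 kb from the gene start, chr7:46835307-46835569, was called in both Pax5K198R replicates (4.67- and 4.51-fold) and in no other list. A further *Ldha* site, 4.26 and 4.35 kb inside the gene, was called in Pax5K198R replicate 2 (5.15-fold) and in Pax5WT replicate 2 (5.95-fold), where its summit was at -14 bases from an internal transcript start. Both windows of 200 bases are shown because no Pax5 core letters were found in them.
Slc2a1 intron site, chr4:119127317-119127516, plus strand: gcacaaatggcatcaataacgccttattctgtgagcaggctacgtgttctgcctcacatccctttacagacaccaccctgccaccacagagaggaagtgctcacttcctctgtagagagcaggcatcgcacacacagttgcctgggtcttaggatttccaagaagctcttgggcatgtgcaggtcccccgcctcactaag
Ldha upstream site, chr7:46835302-46835501, plus strand: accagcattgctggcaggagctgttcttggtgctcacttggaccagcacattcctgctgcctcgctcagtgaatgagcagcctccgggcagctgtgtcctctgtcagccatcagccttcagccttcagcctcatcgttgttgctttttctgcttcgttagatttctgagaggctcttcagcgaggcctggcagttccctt
Of the other genes, *Hk2* had 3 sites that were each called in a single list, *G6pdx* a peak at -380 bases from its start in Pax5K198R replicate 2 alone, and *Slc2a3* a peak at -9.58 kb in Pax5K198R replicate 1 alone, nearer to the start of *Foxj2* than to its own.

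The strongest site lay in *Nr3c1* (chr18:39410545-39519421, minus strand). Peaks within chr18:39489469-39490361 had a fold enrichment over input of 7.63 and 7.19 with Pax5WT, 9.48 and 10.6 with Pax5K198R and 5.87 in Pax5K198Q replicate 2, and no peak was called there in Pax5K198Q replicate 1. Their summits were 29.5 kb inside the gene and at -56 to -20 bases from an annotated internal transcript start. A further *Nr3c1* site, intronic and 43.4 kb inside the gene, was called only in the Pax5K198R lists, at 5.78- and 4.86-fold. The median fold enrichment over whole lists was 5.6 to 5.83, so the first site was above the typical peak of its list in all 5 lists that held it, and the second was close to it or below it.

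The levels of the 10 genes were spread widely. Per kb of merged exon, *Ldha* led in WT pro-B cells with a mean of 4341 normalized counts, followed by *Txnip* at 2426 and *G6pdx* at 1213, and *Slc2a6* was lowest at 27.3. In WT pre-B cells the order at the top was turned, with *Txnip* at 6235 and *Ldha* at 1065. In the EV cultures *Ldha* led again, at 8202 in *Pax5*-/- and 7715 in cultured WT cells, against 2665 and 1493 for *Txnip*, and *Slc2a1* was the highest transporter gene in both, at 421 and 302. In the WT EV cultures *Hk1* at 463 and *Nr3c1* at 458 were neighbours that differed by less than their spread. Merged exons are longer than any single transcript, so these are levels for ordering genes and not transcript numbers.

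The first comparison asked how the genes differed between pro-B and pre-B cells, stages sorted from the marrow of 2 mice of each genotype. In WT mice 6 of 10 passed the test (limma adjusted p under 0.05), 2 higher and 4 lower in pre-B cells, where 40.2% of all 17649 genes tested passed. In *Sirt7*-/- mice 6 of 10 passed, 3 higher and 3 lower, against 35.7% of all genes, and 5 of 10 against 38.5% with the replicate number as a block. Libraries of the 2 stages did not overlap in 72.6% of all genes in WT and in 69.8% in *Sirt7*-/- mice, so a lack of overlap was common. Since these are bulk libraries, fewer cells of a type and less RNA per cell cannot be told apart.

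*Ldha* changed most. It was at 14631 and 14108 normalized counts in WT pro-B cells and at 3505 and 3544 in WT pre-B cells. In *Sirt7*-/- mice it was at 15403 and 15939 in pro-B and at 3504 and 5959 in pre-B cells. The stages did not overlap in either genotype, and *Sirt7*-/- pre-B replicate 2 was the highest of the pre-B libraries. *Ldha* differed in pre-B cells by -2.03 ± 0.22 (log2 ± SE, limma adjusted p = 0.000675) in WT and by -1.78 ± 0.22 (adjusted p = 0.00161) in *Sirt7*-/- mice. The same *Sirt7*-/- pre-B replicate 2 library stood apart in markers, with *Dntt* at 3838, *Igll1* at 4122 and a summed erythroid marker level of 76933, led by *Hba-a1*. The erythroid sum was also high in *Sirt7*-/- pro-B replicate 2, at 56518, against 7923 to 24348 in the other 6 libraries. The summed natural killer cell markers were highest in the same 2 libraries. They were at 986 against 160 to 360 in the other pre-B libraries, and at 1506 against 611 to 709 in the other pro-B libraries. *Thy1*, a T cell marker, was at 323 in *Sirt7*-/- pre-B replicate 2 against 14.2 to 43.7 in the other pre-B libraries and 886 to 1422 in the pro-B libraries. Of the other T cell markers in that pre-B library, *Tcf7* was at 527 and *Trbc1* at 50.6, and *Cd3e*, *Cd3d* and *Cd3g* were at 0. The part of these markers in the *Ldha* levels was not tested.

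Among the hexokinases, *Hk2*, the inducible form of growing cells, was at 413 and 461 in WT pro-B and 165 and 193 in WT pre-B cells, and at 357 and 426 against 165 and 191 in *Sirt7*-/- cells. It was lower in every pre-B library than in any pro-B library, at -1.28 ± 0.20 (limma adjusted p = 0.00246) in WT and -1.13 ± 0.20 (adjusted p = 0.00535) in *Sirt7*-/- mice. *Hk1* varied between the pro-B libraries of each genotype: it was at 1845 and 4703 in WT pro-B and at 2746 and 2613 in WT pre-B cells, whose ranges overlap, and its difference of -0.14 did not pass. In *Sirt7*-/- mice *Hk1* was at 2159 and 4294 in pro-B and at 1202 and 1233 in pre-B cells, which did not overlap. That difference of -1.32 ± 0.46 missed the threshold in limma (adjusted p = 0.0625, and 0.0515 with the replicate block) and passed in DESeq2 on the recovered reads (adjusted p = 0.00344). *Hk1os* lies antisense to *Hk1*, and whether counting used the strand is not stated in the sources used here.

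*Hk3*, the hexokinase of myeloid cells, was at 318 and 184 in WT pro-B, 269 and 36 in *Sirt7*-/- pro-B, 107 and 88.5 in WT pre-B and 68.2 and 24.2 in *Sirt7*-/- pre-B cells. Its differences of -1.30 ± 0.92 (limma adjusted p = 0.3) and -1.26 (adjusted p = 0.328) between the stages did not pass. The latter was -2.69 (adjusted p = 0.0381) without the low *Sirt7*-/- pro-B replicate 2 and 0.18 without the high replicate 1. The summed level of the 13 myeloid markers put the 8 libraries in the same order. It was 97911 in WT pro-B replicate 1, 76239 in *Sirt7*-/- pro-B replicate 1, 65421 in WT pro-B replicate 2, 26182 and 22152 in the WT pre-B libraries, 16386 in *Sirt7*-/- pre-B replicate 1, 16124 in *Sirt7*-/- pro-B replicate 2 and 12220 in *Sirt7*-/- pre-B replicate 2. The most abundant of them was *Ngp*, a neutrophil granule gene, in the 4 pro-B libraries (4974 to 50588) and the integrin gene *Itgam* in the 4 pre-B libraries (8351 to 9154), and *Cd14* was at 0 in the 3 lowest libraries. Single markers did not all follow *Hk3*: *Itgam* was lower in the pro-B libraries, at 4085 to 5096, and *Ngp* was at 4974 in *Sirt7*-/- pro-B replicate 2 and 3761 in *Sirt7*-/- pre-B replicate 1, where *Hk3* was at 36 and 68.2. At least 12 of the 13 markers reached 10 normalized counts in every library, and their part in the *Hk3* level was not tested. In the cultures *Hk3* did not exceed 6.85.

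The transporter genes did not move together. *Slc2a1* was at 1293 and 1375 in WT pro-B and at 2005 and 1857 in WT pre-B cells, and at 1375 and 1241 against 2330 and 1865 in *Sirt7*-/- cells. Every pre-B library was above every pro-B library, and *Slc2a1* was higher by 0.53 ± 0.14 (limma adjusted p = 0.0208) in WT and by 0.67 ± 0.14 (adjusted p = 0.0101) in *Sirt7*-/- mice. *Slc2a3*, the gene of the high-affinity transporter GLUT3, went the other way in WT mice, from 1265 and 1204 to 854 and 756 (-0.62 ± 0.14, limma adjusted p = 0.012). In *Sirt7*-/- mice it was at 1205 and 1162 in pro-B and at 1182 and 972 in pre-B cells, ranges that overlap, and its difference of -0.14 did not pass (adjusted p = 0.46). The difference between the genotypes in this stage effect was 0.48 ± 0.20 and did not pass (limma adjusted p = 0.903). *Slc2a6*, the gene of a lysosomal transporter, was the least expressed, at 48.6 and 127 in WT pro-B, 188 and 142 in WT pre-B, 103 and 108 in *Sirt7*-/- pro-B and 388 and 236 in *Sirt7*-/- pre-B cells. It passed in *Sirt7*-/- mice only without the replicate block (1.51 ± 0.47, limma adjusted p = 0.0442, and 0.0616 with the block), and not in WT mice (1.05 ± 0.47, adjusted p = 0.122). The call for *Slc2a1* in WT mice was lost when any 1 of the 4 libraries was left out, with limma adjusted p between 0.0537 and 0.0981, and so was that of *Slc2a6* in *Sirt7*-/- mice (0.0518 to 0.2). That of *Slc2a3* in WT mice was lost without pro-B replicate 1 (0.0649) or pre-B replicate 2 (0.0625), and that of *Slc2a1* in *Sirt7*-/- mice without pro-B replicate 2 (0.0615).

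*Txnip*, the opponent of the transporters, rose. It was at 8521 and 6632 in WT pro-B and at 23737 and 15205 in WT pre-B cells, and at 7017 and 9165 against 18789 and 19024 in *Sirt7*-/- cells. All 4 pre-B libraries were above all 4 pro-B libraries, and the difference was 1.34 ± 0.23 (limma adjusted p = 0.00431) in WT and 1.24 ± 0.23 (adjusted p = 0.00748) in *Sirt7*-/- mice. *G6pdx*, the first enzyme of the pentose phosphate pathway, was at 3687 and 3784 in WT pro-B and 2773 and 2811 in WT pre-B cells, a small and even fall of 0.42 ± 0.09 (limma adjusted p = 0.00942), and in *Sirt7*-/- cells it was at 3759 and 3493 against 2840 and 3020 (-0.31, adjusted p = 0.0344). The *G6pdx* call was lost without WT pro-B replicate 2 (limma adjusted p = 0.0556) and, in *Sirt7*-/- mice, without pro-B replicate 1 (0.169), pre-B replicate 1 (0.125) or pro-B replicate 2 (0.0763). *Nr3c1* showed no stage difference beyond its spread, with 3730 and 6452 in WT pro-B, 5423 and 3860 in WT pre-B, 5529 and 6054 in *Sirt7*-/- pro-B and 2997 and 5964 in *Sirt7*-/- pre-B cells.

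**Figure D2:**
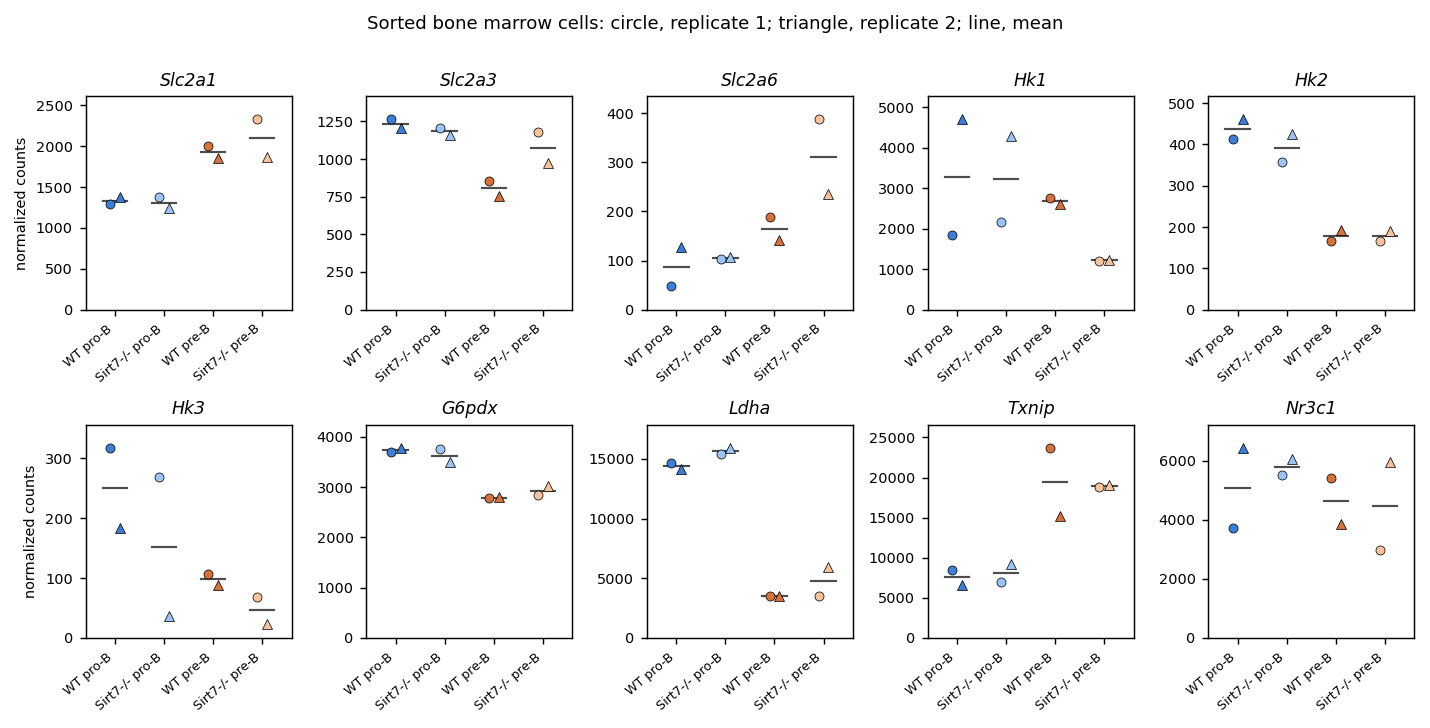
Normalized counts (vertical axis, from 0) of the 10 genes in the 8 sorted libraries by stage and genotype, with a point per library and a line at the mean of each group. *Ldha* and *Hk2* sit lower, and *Txnip* and *Slc2a1* higher, in all 4 pre-B than in all 4 pro-B libraries, while *Nr3c1* overlaps between the stages.

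The rest of the pathway was read from gene lists, whose counts stand beside 40.2% of all genes passing in WT and 35.7% in *Sirt7*-/- mice. Of 17 glycolysis genes tested in WT mice, 10 were lower and 4 higher in pre-B cells, with a median of -0.86 (log2) against -0.04 over all genes. *Gapdh* (-1.90), *Tpi1* (-1.55) and *Pgk1* (-1.19) were among those that fell, and *Pgam2*, the muscle form of phosphoglycerate mutase, rose by 1.96. Of 15 lactate and pyruvate genes, 7 were lower and 2 higher. They included *Ldhb* (-3.57, from 81.3 and 55.9 to 9.41 and 2.19 normalized counts), the pyruvate carboxylase gene *Pcx* (-1.90) and *Pdk1* (-1.65), whose kinase inhibits pyruvate dehydrogenase. In the pentose phosphate pathway *Tkt* (-1.43) and *G6pdx* fell, *Pgls* rose (0.58), and the other 5 of 8 did not pass, a share near that of all genes and so no result about the list. In *Sirt7*-/- mice the counts were the same for these lists, 10 lower and 4 higher of 17, 7 and 2 of 15, and 2 and 1 of 8.

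**Figure D3:**
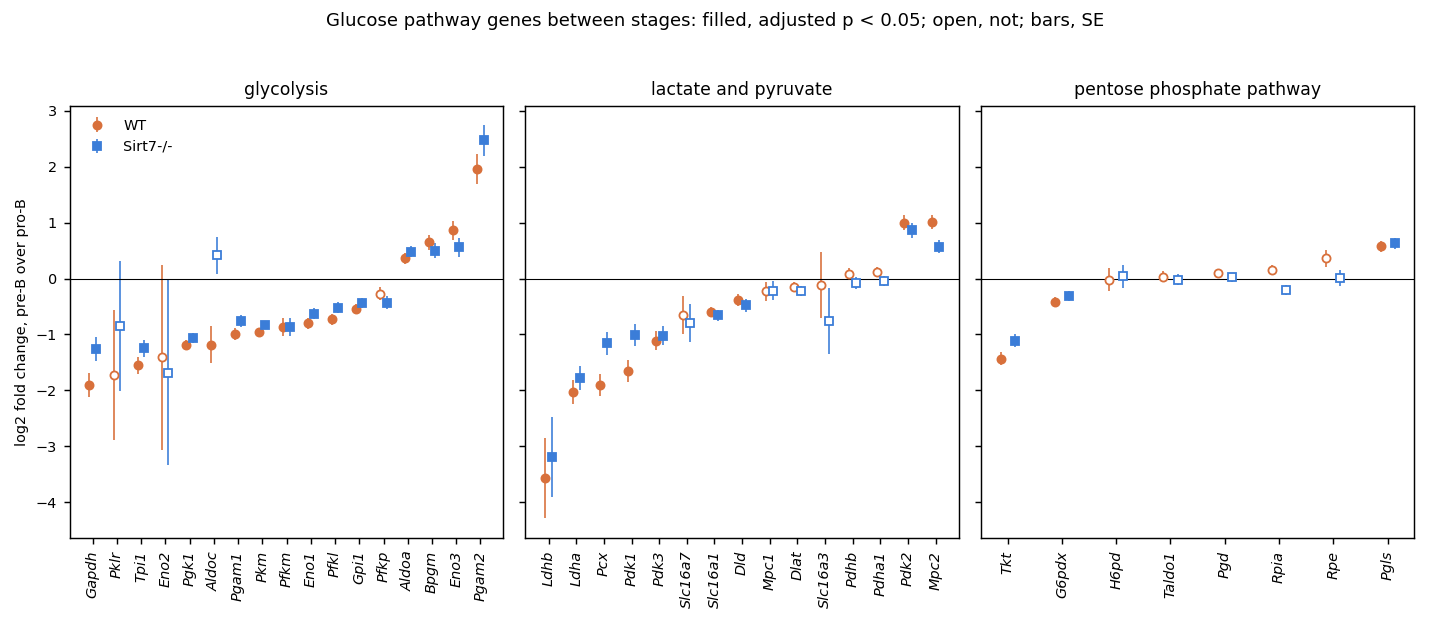
Log2 difference between pre-B and pro-B cells with its SE for the genes of the glycolysis, lactate and pyruvate, and pentose phosphate lists, in WT (circles) and *Sirt7*-/- (squares) mice, filled where adjusted p was under 0.05. Most glycolysis genes lie below 0 in both genotypes, 10 of 17 passing as lower in each.

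Around *Txnip*, 5 of 13 genes of the thioredoxin-interacting family and its sugar-responsive regulators were higher and 4 lower in WT mice. *Mlxip*, which encodes MondoA, rose by 1.26 (15191 and 14431 to 37104 and 33727 normalized counts), whereas *Arrdc4*, the closest relative of *Txnip* and another MondoA target, fell by 1.23, and the thioredoxin gene *Txn1* fell by 1.18. Around *Nr3c1*, 5 of 15 genes were lower and 2 higher, again near the 40.2% of all genes. The largest of these changes was that of *Zbtb16* (-3.76). The receptor chaperones *Fkbp5* (-1.59), *Fkbp4* (-1.62) and *Hsp90aa1* (-1.68) were also lower. *Cnr2* showed the largest rise of the named energy genes, from 117 and 132 to 2410 and 1913 normalized counts in WT (4.10 ± 0.19, limma adjusted p = 0.000102) and from 107 and 94.1 to 3117 and 2527 in *Sirt7*-/- mice (4.79). Of 23 AMPK and insulin signalling genes, 10 were higher and 1 lower, also near that share, with the insulin receptor substrate gene *Irs1* (1.35) rising and *Igf1r* (-1.75) falling. Of 12 metabolic transcription factor genes, 8 were higher and 2 lower. *Myc*, a driver of glycolysis and growth, fell by 3.65, *Mycn* fell by 1.51, and *Mxd4*, an antagonist of *Myc*, and *Foxo1* rose by 1.47 and 1.09. All 20 cell cycle genes were lower in pre-B cells in both genotypes, with a median of -1.69 in WT and -1.15 in *Sirt7*-/- mice, and their part in the *Ldha*, *Hk2* and glycolysis differences was not tested.

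The second comparison asked whether loss of *Sirt7* changed the genes within a stage. No member passed in pro-B cells, where 0.0623% of all genes did, or in pre-B cells, where 0.085% did, or in the interaction of stage and genotype, where 0.00567% did (limma adjusted p). At an unadjusted p under 0.05 (limma) there were 0 members in pro-B cells, 2 in pre-B cells (*Slc2a3* and *Hk1*) and 1 in the interaction (*Slc2a3*). Of all 17649 genes tested, 1048, 2405 and 959 were under it in the same order. DESeq2 and edgeR on the recovered reads called 0 members in each. In pre-B cells *Hk1* was lower in both *Sirt7*-/- mice (1202 and 1233) than in both WT mice (2746 and 2613), at -1.14 ± 0.46 (limma adjusted p = 0.346), and *Slc2a3* was higher (1182 and 972 against 854 and 756), at 0.42 (adjusted p = 0.264). With 2 mice a side such differences could not be told from the spread between libraries. The genotypes did not overlap in 41.4% of all genes in pre-B cells. Of the glucose pathway lists, no gene passed between the genotypes in either stage.

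The third comparison asked what each Pax5 form did in *Pax5*-/- pro-B cells. Against EV, 0 of 9 members passed with Pax5WT (3.25% of 13345 genes), 0 with Pax5K198Q (0.922%) and 1 with Pax5K198R (9.92%). With Pax5WT and with Pax5K198Q 2 members each, *Slc2a3* and *Txnip*, were at an unadjusted p under 0.05 (limma). Of the 13345 genes 1921 and 1049 were so. With the replicate number as a block, 2 of 9 passed with Pax5WT, where 10.1% of all genes did. The comparisons against EV share the same 2 EV libraries. EV did not overlap with Pax5WT in 42.6%, with Pax5K198Q in 34.2% and with Pax5K198R in 46.8% of all genes.

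*Txnip* was at 9522 and 7126 with EV, 5185 and 5937 with Pax5WT, 6080 and 5897 with Pax5K198Q and 5406 and 5838 with Pax5K198R. Both EV libraries were above all 6 libraries with a Pax5 form. The difference from EV was -0.57 ± 0.14 with Pax5WT (limma adjusted p = 0.0853, and 0.0315 with the replicate block), -0.46 with Pax5K198Q (0.356 and 0.134) and -0.55 ± 0.14 with Pax5K198R (0.0494 and 0.0208). Without EV replicate 1, the highest library, the Pax5K198R difference was -0.34 (limma adjusted p = 0.209), and it was also not called without either Pax5K198R library. The promoter site printed above was called in Pax5WT replicate 1 and both Pax5K198R samples.

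*Slc2a3* was at 1659 and 1764 with EV, 1226 and 1204 with Pax5WT, 1327 and 1482 with Pax5K198Q and 1428 and 1577 with Pax5K198R, so EV was highest and Pax5WT lowest without overlap. With Pax5WT it differed from EV by -0.49 ± 0.11 (limma adjusted p = 0.0536, and 0.00778 with the replicate block). *Slc2a1*, at 1355 and 1597 with EV and 1033 and 1238 with Pax5WT, differed by -0.38 (adjusted p = 0.495, and 0.0574 with the block). *Nr3c1*, which carried the strongest Pax5 site of the set, ranged from 2362 to 2695 over all 8 libraries, and passed in none of these comparisons. *Ldha* followed the replicate number rather than the form, with 16823 to 22372 in the replicate 1 libraries and 31319 to 36232 in the replicate 2 libraries.

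Between the forms, 0 of 9 members differed between Pax5K198Q and Pax5WT (0.0225% of all genes). None of them was at an unadjusted p under 0.05 (limma), where 462 of 13345 genes were. Between Pax5K198R and Pax5WT 0 of 9 passed (2.87%), with *Slc2a3* and *Hk1* at an unadjusted p under 0.05, where 1696 genes were. With the replicate block 1 passed (7.52%). That was *Hk1*, at 2926 and 3068 with Pax5K198R against 3431 and 3945 with Pax5WT, a difference of -0.30 ± 0.11 (limma adjusted p = 0.287, and 0.0349 with the block).

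In the wider lists, *Pfkp*, the platelet form of phosphofructokinase, was lower with Pax5K198R than with EV (-0.93, 762 and 794 to 521 and 317 normalized counts), as was the monocarboxylate transporter gene *Slc16a7* (-3.60, at 13.6 and 15.6 with Pax5K198R). *Foxo1* was higher (1.25, 2094 and 2042 to 4914 and 4901), and so was *Prkaa2*, an AMPK catalytic subunit gene (1.75, 131 and 117 to 322 and 539). Against Pax5WT directly, *Prkaa2* was higher by 1.82 ± 0.27 (limma adjusted p = 0.0162) and *Foxo1* by 0.54 ± 0.08 (adjusted p = 0.0189). *Hsd11b1*, which regenerates active glucocorticoid for the receptor, was lower with Pax5WT (-0.78) and with Pax5K198R (-1.04). *Zbtb16* had the largest change of the glucocorticoid receptor list with Pax5K198R against EV (-2.30). Beside the 9.92% of all genes that passed with Pax5K198R against EV, glycolysis had 1 of 15 genes lower and 0 higher (median -0.24), the metabolic transcription factors 2 of 12 lower and 2 higher, the AMPK and insulin list 1 of 23 lower and 2 higher, the glucocorticoid receptor list 3 of 14 lower and 0 higher, and the cell cycle list 0 of 20 either way, or 8 higher with the replicate block. *Cnr2* was at 376 and 310 with EV, 168 and 116 with Pax5WT and 205 and 118 with Pax5K198R, and both Pax5K198Q libraries lay between these and EV. Its differences from EV with Pax5WT, Pax5K198Q and Pax5K198R of -1.28, -0.40 and -1.13 did not pass (limma adjusted p = 0.0814, 0.996 and 0.0675).

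The fourth comparison asked what *Sirt7* loss and the Pax5 forms did in cultured pro-B cells. *Sirt7* was at 1324 and 905 in WT and 336 and 387 in *Sirt7*-/- cells with EV. With EV in both, 0 of 9 members passed between the genotypes (0.557% of 13651 genes, limma), and the differences lay between -0.13 and 0.14. At an unadjusted p under 0.05 there were 0 members and 1322 of the 13651 genes. Adding Pax5WT to *Sirt7*-/- cells changed 0 of 9 (0.0366% of all genes), and 1 of 9 with the replicate block (1.96%). Among the members *Hk1* alone was at an unadjusted p under 0.05, where 1353 of the 13651 genes were. Adding Pax5K198R changed 1 of 9 (4.83%), and 3 of 9 with the block (11.6%), all lower. Both of these comparisons share the *Sirt7*-/- EV libraries, which did not overlap with Pax5WT in 38.7% and with Pax5K198R in 49.6% of all genes.

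*Hk1* was at 4834 and 3060 in WT EV, 5003 and 3479 in *Sirt7*-/- EV, 2396 and 1612 in *Sirt7*-/- Pax5WT and 2516 and 1568 in *Sirt7*-/- Pax5K198R libraries. All 4 EV libraries were above all 4 libraries with added Pax5, and the replicate 1 library was the higher in all 4 groups. The difference from *Sirt7*-/- EV was -1.09 ± 0.32 with Pax5WT, or -1.06 and -1.11 in the separate replicates (limma adjusted p = 0.308, and 0.00377 with the replicate block), and -1.07 with Pax5K198R, or -0.99 and -1.15 in the separate replicates (0.117 and 0.000438). In *Pax5*-/- cells, by contrast, Pax5WT left *Hk1* at 3431 and 3945 beside 3355 and 3575 with EV. The tables were normalized separately, the strains were not the same, and this difference between systems was not tested. The internal site of *Hk1* printed above was mapped in *Pax5*-/- cells only.

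*Slc2a6* was at 95.6 and 56.2 in WT EV, 79.4 and 56.4 in *Sirt7*-/- EV, 49.3 and 39.2 in *Sirt7*-/- Pax5WT and 21.1 and 19.9 in *Sirt7*-/- Pax5K198R libraries. Pax5K198R was lowest without overlap, at -1.66 ± 0.37 against *Sirt7*-/- EV (limma adjusted p = 0.048, and 0.0133 with the replicate block). No Pax5 peak was called at this gene, but peaks were mapped in *Pax5*-/- cells only. The *Slc2a6* call with Pax5K198R was lost when any 1 of its 4 libraries was left out without the block. *Nr3c1* was at 3842 and 3201 in WT EV, 3182 and 3217 in *Sirt7*-/- EV, 2867 and 2560 with Pax5WT and 2444 and 2236 with Pax5K198R, and its difference with Pax5K198R was -0.45 ± 0.12 (limma adjusted p = 0.0805, and 0.0177 with the block). *Txnip*, at 3851 to 5473 over the 8 libraries, and *Slc2a1*, at 909 to 1184, did not differ in any of these comparisons.

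**Figure D4:**
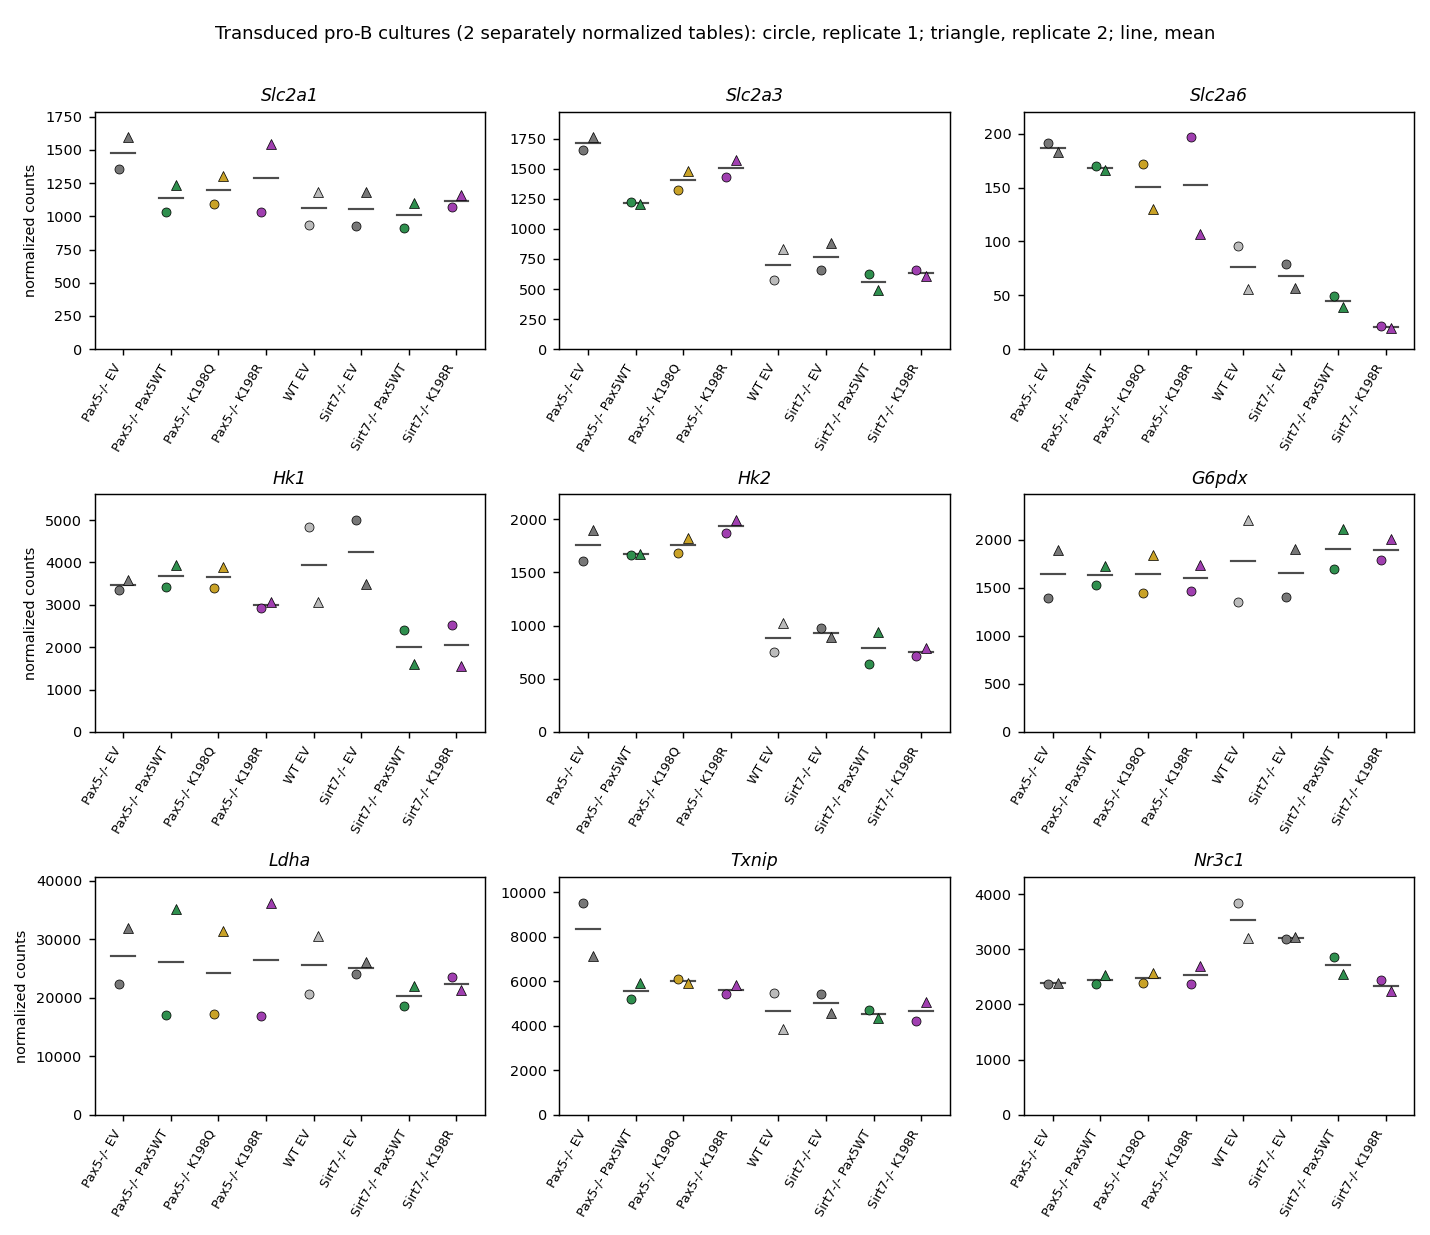
Normalized counts (vertical axis, from 0) of the 9 genes tested in the *Pax5*-/- and the cultured libraries by group, with circles for replicate 1, triangles for replicate 2 and lines at the mean. *Txnip* is highest in the 2 *Pax5*-/- EV libraries, and *Hk1* is lower in the 4 *Sirt7*-/- libraries with added Pax5 than in the 4 EV libraries of the cultured cells.

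Stromal markers were measured in the cultures, which were grown on mouse feeder cells and, per the study's methods, sorted for the hCD4 marker of the retroviral vector after infection. Whether their reads came from feeder cells was not tested. Their summed level, led by *Fn1*, was 7378 to 11728 in 6 of the 8 cultured libraries but 29597 in *Sirt7*-/- Pax5WT replicate 2 and 22362 in *Sirt7*-/- Pax5K198R replicate 2, and 2506 to 6536 in the *Pax5*-/- libraries. In the replicate 1 libraries the stromal sums were 11585 with Pax5WT, 9040 with Pax5K198R and 7378 with EV in *Sirt7*-/- cells, and the *Hk1* differences were -1.06 and -0.99. The summed level of mature B markers, led by *Ighd*, was 2982 and 4081 in *Sirt7*-/- EV, 6772 and 15848 in *Sirt7*-/- Pax5WT and 14120 and 38369 in *Sirt7*-/- Pax5K198R libraries. The part of either marker list in the results was not tested.

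Other glucose genes passed with Pax5K198R in the *Sirt7*-/- cells. *Pfkp* (-1.22, 2504 and 2181 to 1204 and 839 normalized counts), *Tpi1* (-0.54) and *Pdk1* (-0.83) were lower, and *Eno3*, the muscle enolase gene, was higher by 0.86. *Mtor* was higher by 0.98 (6550 and 6693 to 12903 and 13307), and *Sgk1*, a glucocorticoid-induced kinase gene, was lower (-1.21, 300 and 275 to 113 and 136). *Zbtb16* had the largest change of the glucocorticoid receptor list (-5.35). Of 15 glycolysis genes 2 were lower and 1 higher, beside 4.83% of all genes passing, with a median of -0.16 against 0.01 over all genes. *Cnr2*, at 39 and 50.3 with *Sirt7*-/- EV, was at 40.6 and 60.8 with Pax5WT and at 50.1 and 174 with Pax5K198R, and its differences of 0.16 and 1.06 did not pass (limma adjusted p = 0.972 and 0.386).

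**Figure D5:**
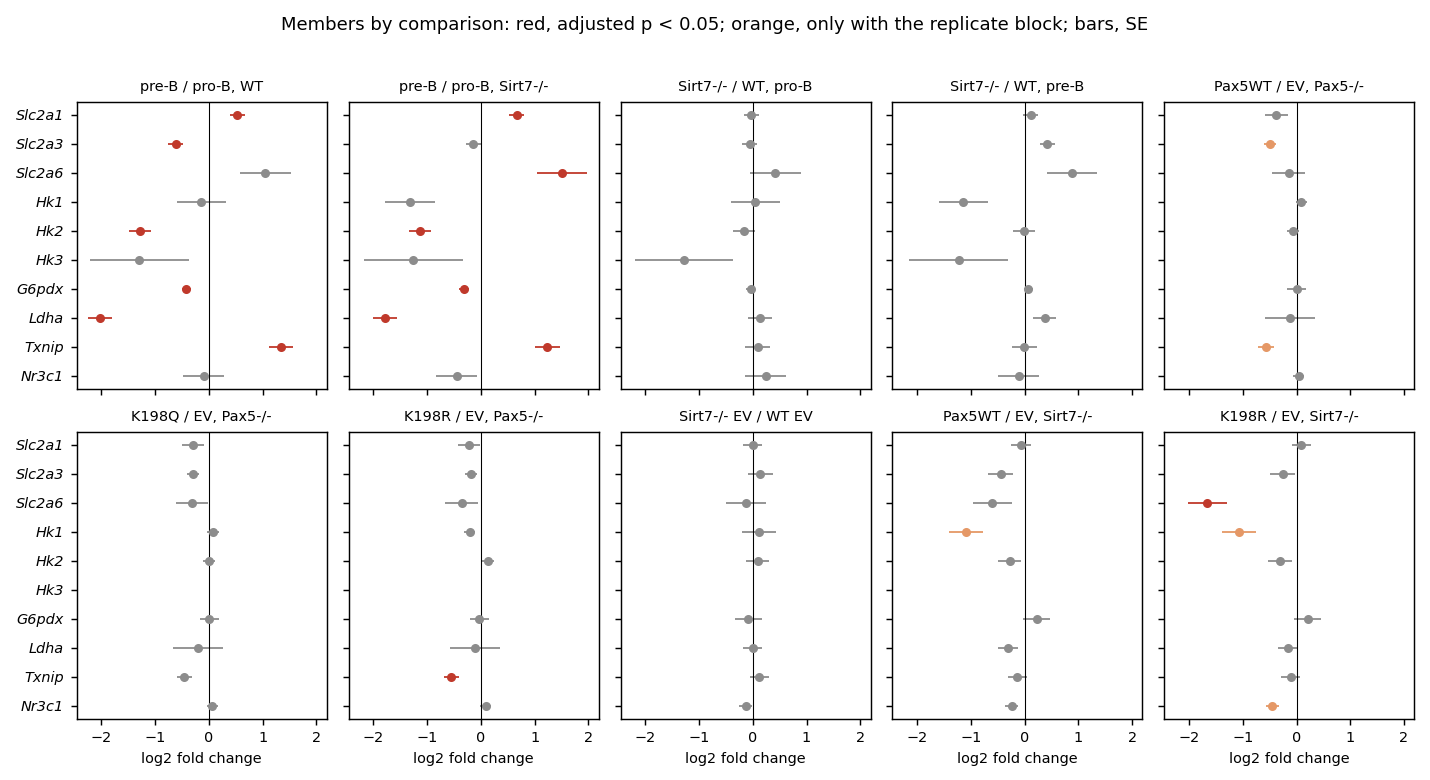
Log2 differences with their standard errors for the 10 genes (horizontal axis) in the stage, genotype and EV comparisons, red where adjusted p was under 0.05 and orange where it was so only with the replicate block. The widest spread between genes is in the stage comparisons, from -2.03 (*Ldha*) to 1.34 (*Txnip*) in WT mice, and the differences between *Sirt7*-/- and WT EV cultures lie between -0.13 and 0.14.

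Genes with a pattern like 3 of the members were sought over all 24 libraries among 8607 genes, after centring each gene within its table, as a description, since libraries of a table share their normalization. Most like *Ldha* were *Gapdh*, *Mif* and *Impdh2* (Pearson r = 0.97 each), and within the separate tables *Gapdh* kept r = 0.98, 0.98 and 0.86. Among the most like *Txnip* were *Tyk2* (r = 0.92) and *Nfkbia* (0.91), with 0.96, 0.80 and 0.60 for *Tyk2* within the sorted, *Pax5*-/- and cultured tables. Most like *Slc2a1* were *Mnt* (0.86), *Tmem175* (0.83) and *Rhog* (0.82). For *Rhog* r was 0.18 within the cultured table.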

How the data were processed

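RNA-seq values were the deposited tables of normalized counts, a signal that the authors made with Salmon (mm10, GC bias correction), Tximeta and the DESeq2 median-of-ratios scaling, each table on its own. Whole reads, within 0.05 of a read, could be recovered from 100% of the values of sorted cells. Peaks were the deposited MACS2 lists, called by the authors per sample against input after Bowtie2 alignment, with a fold enrichment (ratio) and a −log10 q-value per peak. Tool versions are not given in the sources used here.

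Here log2(normalized count + 1) was fitted per table over all groups with limma 3.58.1 (R 4.3.3) on genes with at least 10 in at least 2 libraries, with Benjamini-Hochberg adjusted p under 0.05 as a call. Fold changes are on that scale, which understates changes of low genes. DESeq2 1.42.0 and edgeR 4.0.16 were run on the whole reads of the sorted table. Of these steps only the limma fit was tested on simulated data, for a single comparison of each table. A gene had a peak where both replicates' peaks shared at least 1 base over the gene or its 10 kb upstream.

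The study's methods give replicates of mouse work as separate mice and RNA-seq replicates as made on separate days, but do not say that equal numbers share a day. For sorted cells the sample descriptions give both stages of a replicate number the same code, taken as the mouse. In the cultures same-numbered libraries deviated together (Pearson r from 0.422 to 0.615 in *Pax5*-/- and 0.212 to 0.487 in cultured cells). The stages of sorted cells did so little (0.104 in WT and 0.15 in *Sirt7*-/- mice, against -0.0302 to 0.103 between genotypes), so their block rests on the codes. The value with the replicate number as a block stands beside a result where it changes the call.

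Members, gene lists and tests were chosen with earlier results of these data known. From each list the genes with the largest changes among those that passed are named; *Cnr2*, and other genes given with values that did not pass, were chosen after their values were seen. Reads of *Hk1* and *Hk1os*, *G6pdx* and its retrogene, and *Ldha* and its pseudogenes may be split uncertainly, likewise those of *G6pdx* and *Ikbkg*, and of *Hk3* and *Unc5a*, which overlap. Input samples were not used here. Some surface markers of the sorts and some genes that the naming rule would give are not reported here.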

Additional observations from a re-analysis of the deposited data

How the results depend on the processing

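Counts of genes called are given first, then of members. With a log2 change of at least 1.5 added, 2451 genes passed between the stages in WT and 1809 in *Sirt7*-/- mice (members 1 and 2), 203 for Pax5WT against EV, 612 for Pax5K198R against EV (members 0) and 213 for Pax5K198R against Pax5WT. With no filter on low values 260 passed for Pax5WT, 73 for Pax5K198Q and 231 for Pax5K198R against Pax5WT, 44 for *Sirt7*-/- EV against WT EV and 423 for *Sirt7*-/- Pax5K198R, and the single member call of Pax5K198R was lost in both systems (members 0 in each). With a pseudocount of 10, 5 genes passed for *Sirt7* loss in pre-B cells, 9 for Pax5K198Q against Pax5WT and 12 for *Sirt7*-/- Pax5WT, and 0 members for *Sirt7*-/- Pax5K198R, as with equal library totals. DESeq2 called 128 genes in pro-B cells, 728 in pre-B cells and 104 in the interaction for *Sirt7* loss, and edgeR 5 in pre-B cells, with 0 members in each. The causes were not tested.

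With the replicate block 1343 genes passed for Pax5WT (members 2), 363 for Pax5K198Q, 2834 for Pax5K198R, 29 for Pax5K198Q and 1004 for Pax5K198R against Pax5WT (members 1 in the latter), 288 for *Sirt7*-/- EV against WT EV, 268 for *Sirt7*-/- Pax5WT (members 1) and 1588 for *Sirt7*-/- Pax5K198R (members 3). For *Sirt7* loss in sorted cells, where the numbers cannot pair mice of unlike genotype, the block gave 7 genes in pre-B cells and 0 in the interaction. It changed no other call of a member beyond those given with the results. Equal library totals, with an adjusted p of 0.0462 in limma, brought *Hk1* between the stages of *Sirt7*-/- mice past the threshold and took *Slc2a6* there out of it (0.0533). Over single members, for stage differences, those of at least 0.4 (log2) and those called, 207 of 222 results under settings other than leaving out a library kept their direction and side of the threshold, and 0 turned.

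Leaving out 1 library in turn gave 4700 to 5259 genes between the stages in WT and 3720 to 5857 in *Sirt7*-/- mice, 0 to 14 for *Sirt7* loss in pro-B cells, 16 to 195 in pre-B cells (195 without *Sirt7*-/- pre-B replicate 1, where *Ldha* was called, members 0 to 1) and 0 to 14 for the interaction. For Pax5WT against EV it gave 89 to 168 (members 0 to 1), for Pax5K198Q 31 to 70, for Pax5K198R 567 to 1477 (members 0 to 1), for Pax5K198Q against Pax5WT 0 to 1 and for Pax5K198R against Pax5WT 21 to 573. In cultured cells it gave 3 to 66 for *Sirt7* loss, 1 to 5 for Pax5WT and 63 to 225 for Pax5K198R (members 0). Of the same differences, the direction turned for *Hk1* (-0.81 to 0.54) and *Nr3c1* (-0.50 to 0.29) between the stages in WT mice, *Hk3* (-2.69 to 0.18) and *Nr3c1* (-0.95 to 0.04) between the stages in *Sirt7*-/- mice, *Hk3* (-2.71 to 0.15) and *Slc2a6* (-0.27 to 1.10) for *Sirt7* loss in pro-B cells, and *Slc2a6* in the interaction (-0.22 to 1.15). Of the 81 other differences, all under 0.4, 55 turned when some library was left out and 6 under some other setting. Of calls on members, those of *Ldha*, *Hk2* and *Txnip* between the stages held without any 1 library in both genotypes. A library left alone in its group was taken to vary like the other groups.

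Peaks were at 6, 1 and 8 members for Pax5WT, Pax5K198Q and Pax5K198R when either replicate counted (40.3%, 19.3% and 43.8% of all genes), at 1 for Pax5WT and 1 for Pax5K198R at a −log10 q of at least 10 (13.3% and 15.4%), at 0 and 2 from 10 kb upstream to 1 kb inside the gene (20.5% and 24.2%), and at 4 to 5 for Pax5WT, 0 to 1 for Pax5K198Q and 6 to 7 for Pax5K198R with 1 list alone (32.2% and 35.6%, 14.5% and 15%, and 38.8% and 36.5% of all genes). With a stricter overlap asked of the replicates' peaks, Pax5K198R had 4 members, without *Hk1* (27.7% of all genes).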
